A study of Mus musculus with 6 samples.

Results

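The circadian clock genes Arntl, Clock, Npas2, Per1, Per2, Per3, Cry1, Cry2, Nr1d1 and Dbp were examined in the testis of mice raised on a standard diet (SD) or a high-fat Western-like diet (WD) rich in butter and sucrose. The 10 genes were taken by their symbol in the annotation of the platform, and 18 of the 45281 probes of the array belonged to them. Males of the C57Bl/6 strain were kept on either diet from weaning and their testis RNA was taken at an age of 4 months. There were 3 SD mice (mice 1, 2 and 5) and 3 WD mice (mice 3, 4 and 6), with 1 Illumina BeadChip array per mouse. The study's text says that the arrayed mice were drawn at random after the animals with the strongest response to diet had been set aside. None of the sources used here gives the hour of the day at which the testes were collected, which limits what levels of clock genes can show. Whole testis RNA was measured, so fewer cells of a type and less RNA per cell cannot be told apart.

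The clock of mammalian cells is a transcription loop. The ARNTL protein, also called BMAL1, pairs with CLOCK or with its relative NPAS2 and switches on genes that carry an E-box, among them the Per and Cry genes, whose proteins then inhibit the pair. In a further loop NR1D1, also called REV-ERB alpha, represses Arntl through ROR elements, and DBP, itself driven by E-boxes, acts on D-boxes such as those of Per genes. In organs such as the liver these transcripts rise and fall over the day, with Arntl opposite in phase to Dbp and Nr1d1, whereas clock transcripts of the mouse testis have been described as showing little daily rhythm.

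The elements through which these genes act on each other are shown first. The RefSeq promoter table of build GRCm38.p6 held 13 transcription starts for 9 of the 10 genes, each with 250 bases before and 50 bases after the start, and had no entry for Per2. Both strands were searched for the E-box CACGTG, the E'-box CACGTT, the D-box TTATGTAA and the ROR element TAGGTCA, and matches are in capitals in the sequences printed below. An E-box lay in the first Per1 start and in the Cry1 start, a motif found in 7.15% of the 32851 promoters of the table. The Cry1, Cry2 and Nr1d1 starts each held an E'-box on the reverse strand (4.68% of all promoters), which reads AACGTG there. Per3 had 2 D-boxes (0.938% of all promoters with at least 1), and the second Arntl start held a ROR element (2.61%) at position 31 after the start, of which 30 bases are given. The remaining 7 starts, those of Clock, Npas2 and Dbp among them, held none of the 4 motifs in this window. Of the genes correlated with the activators below, Per1 thus held an E-box and Cry2 an E'-box in this window. Dbp held neither there, and Per2 could not be searched. Sequence outside the window was not searched for any gene, so Dbp cannot be called a gene without an E-box. The Per1 sequence is chr11:69098699-69098948, plus strand, Cry1 is chr10:85185055-85185304, minus strand, and Per3 is chr4:151044666-151044915, minus strand. The stretch of Nr1d1 is chr11:98775378-98775427, minus strand, and that of Arntl is chr7:113207530-113207559, plus strand.
Per1: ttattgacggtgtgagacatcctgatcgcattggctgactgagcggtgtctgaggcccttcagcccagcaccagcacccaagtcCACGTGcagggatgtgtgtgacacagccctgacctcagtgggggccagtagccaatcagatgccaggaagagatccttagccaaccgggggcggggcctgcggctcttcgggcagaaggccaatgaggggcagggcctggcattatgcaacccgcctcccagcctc
Cry1: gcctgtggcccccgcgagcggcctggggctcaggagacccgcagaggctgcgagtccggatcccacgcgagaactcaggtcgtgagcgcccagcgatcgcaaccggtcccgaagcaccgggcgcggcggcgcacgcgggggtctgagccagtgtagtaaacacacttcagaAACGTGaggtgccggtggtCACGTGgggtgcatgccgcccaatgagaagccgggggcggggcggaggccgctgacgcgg
Per3: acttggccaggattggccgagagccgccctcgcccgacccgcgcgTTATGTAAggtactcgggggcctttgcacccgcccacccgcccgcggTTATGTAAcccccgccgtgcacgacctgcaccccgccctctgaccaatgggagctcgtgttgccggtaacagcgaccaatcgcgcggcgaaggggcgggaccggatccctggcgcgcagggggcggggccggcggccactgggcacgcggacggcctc
Nr1d1: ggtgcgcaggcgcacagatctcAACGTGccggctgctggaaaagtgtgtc
Arntl: aaggcagaaagTAGGTCAgggacggaggtg
Of these 5 genes, Per1 and Arntl were detected in the testis of every mouse at their brightest probes, whereas Per3 and Nr1d1 were detected in only some mice. An E-box stood before both Per1, detected in every mouse, and Cry1, detected in none.

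The arrays were of similar quality, with between 42% and 47.1% of probes detected. Mice 5 (SD) and 6 (WD) had the dimmest arrays, with a raw median intensity of 126.2 and 120.1 against 146.6 to 172.5 in the others. Their arrays also correlated with each other more than any other pair (r = 0.9926 over the tested probes, against 0.9829 to 0.9885). The labels name no batch, but the array names of mice 5 and 6 carry a letter only, whereas those of the others carry a letter and a number. Markers of testis cells were present: 5 of 5 elongating spermatid genes on the array, 5 of 5 Leydig cell genes and 6 of 6 macrophage genes were detected on all 6 arrays, as were 3 of 4 Sertoli cell genes. The same held for 4 of 5 round spermatid, 4 of 6 spermatogonial, 3 of 6 spermatocyte, 2 of 3 peritubular and 2 of 4 endothelial genes. The probes of Sycp3 and Dmc1, which act in meiosis and are known to be expressed in testis, were detected on 0 arrays, so that the lack of a signal at a probe cannot be read as absence of the transcript. WD mouse 3 stood apart in its macrophage, Leydig and Sertoli markers. Its median level relative to the SD mean was 1.01 for macrophage, 0.65 for Leydig and 0.33 for Sertoli genes on the log2 scale, against -0.19 to 0.26 in the other WD mice. The summed normalized signal of the endothelial genes was 286 to 336 in WD and 181 to 253 in SD, although the diets overlapped at each of the 4 genes. That of the peritubular genes was 2996 to 3535 in WD and 2371 to 2759 in SD, without overlap at Acta2 and Myh11, while Tagln was detected on 0 arrays. The part of any cell type in the levels below was not tested. The summed signal of the macrophage genes was 2000 to 2131 in SD and 2292 to 4044 in WD, that of the Leydig genes 41167 to 47551 and 44041 to 59185, and that of the Sertoli genes 10854 to 12261 and 10968 to 15187. For the red blood cell genes it was 701 to 804 in SD and 819 to 946 in WD.

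Clock genes divided into 6 that were measured in testis and 4 that were not. A probe was called detected on an array when its detection p, which compares it with negative control beads, was under 0.05, and it entered the comparison of diets when it was detected on at least 3 of the 6 arrays. This held for 19763 of the 45281 probes of the array. Among the clock genes it held for 9 of the 18 probes, those of Arntl, Clock, Per1, Per2, Cry2 and Dbp. Of these, 8 were detected on all 6 arrays and 1, the dimmest Per1 probe, on 5. The other 9 probes were detected on 1 or 2 arrays (5 probes) or on 0 arrays (4 probes). With a stricter detection p under 0.01 there were again 9 probes in the comparison. Levels of different probes depend on their sequence as well as on the transcript, so levels are compared between mice and not between genes.

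**Figure D1:**
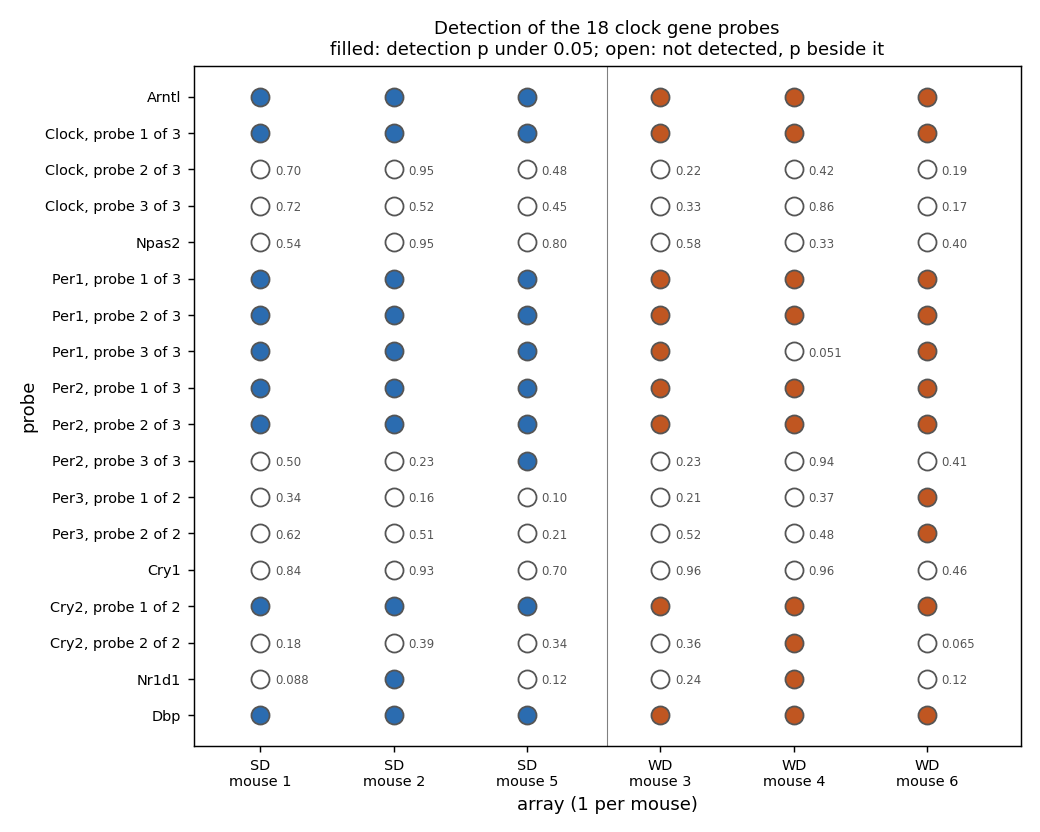
Detection of each of the 18 clock gene probes (rows, ordered by brightness within a gene) on the array of each mouse (columns, SD left and WD right). Filled circles mark a detection p under 0.05 and open circles carry the p beside them. The probes of Npas2 and Cry1 are open in every mouse, while those of Arntl and Dbp are filled in every mouse.

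Among the activators, Npas2, which can stand in for Clock as the partner of ARNTL, was not detected in any mouse. Its raw intensity was 148.6, 112.9 and 106.2 on the SD arrays (mice 1, 2 and 5) and 139, 135.7 and 110.5 on the WD arrays (mice 3, 4 and 6), below the median of all probes on each array, and its detection p lay between 0.325 and 0.949. Clock had 3 probes for the same RefSeq transcript, of which only the brightest was detected. Its raw intensity there was 663.7 to 921.2, whereas the other 2 probes stayed between 112.7 and 153.2 in all mice with a detection p of at least 0.168. At the second Clock probe the log2 level was 4.60, 4.47 and 4.71 in SD and 4.95, 4.76 and 4.97 in WD, without overlap, but no value there could be told from the negative controls. The level of Clock given in the comparison of diets is that of the single detected probe.

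Among the repressors, Cry1, which encodes a cryptochrome that inhibits the activator pair, was not detected in any mouse, with a raw intensity of 136.5, 114.3 and 108.5 on the SD arrays and 120.8, 110.5 and 109 on the WD arrays. Its paralog Cry2 was detected on all 6 arrays at its brighter probe, while the other probe passed in WD mouse 4 alone with a detection p of 0.016. Both probes of Per3 passed in WD mouse 6 alone, with a detection p of 0.0363 and 0.0214. Their normalized log2 levels were 5.39 and 5.49 in this mouse, against 4.80 to 5.06 and 4.64 to 4.90 in the other 5 mice. Nr1d1, the nuclear receptor of the second loop, passed in SD mouse 2 and WD mouse 4 with a detection p of 0.031 and 0.016. Its log2 level there was 5.65 and 5.67, against 4.93 to 5.19 in the other mice. The third Per2 probe passed in SD mouse 5 alone, with a detection p of 0.0331. Over the 9 probes that did not enter the comparison, 6 of 54 values were detected, 2 on SD and 4 on WD arrays, a difference that was not tested. By its definition a detection p under 0.05 also calls some values without signal. The share of such calls among all probes left out of the comparison was not computed, so a single call cannot be read as expression in that mouse. The detected values lie close to the detection limit, since the lowest level detected was 5.20 to 5.43 depending on the array. No diet difference was computed for these probes.

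Arntl, the activator without which the loop stops, had nearly the same mean on both diets. SD mice 1, 2 and 5 had normalized log2 levels of 7.16, 6.93 and 7.47, and WD mice 3, 4 and 6 had 6.94, 7.10 and 7.42. The highest values were those of SD mouse 5 and WD mouse 6, the mice with the dimmest arrays, and the diets overlapped. The mean was 7.19 ± 0.270 in SD and 7.15 ± 0.247 in WD (standard deviation of 3 mice each, as for the means that follow), a log2 fold change of -0.04 ± 0.19 (standard error, as for the other fold changes) with a limma adjusted p of 0.989. The sign of this value turned to 0.10 without SD mouse 5 and to 0.07 without WD mouse 3.

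Clock, the partner of ARNTL, varied least between mice of the same diet among the 9 clock probes. The SD animals had levels of 9.31, 9.42 and 9.52, against 9.58, 9.67 and 9.49 for the WD animals. WD mouse 6 lay below SD mouse 5, and the other WD mice lay above all SD mice. Its standard deviation within a diet of 0.097 was at percentile 10.5 of the 19763 tested probes, whereas the other 8 clock probes were between percentiles 34.7 and 73.7. The mean was 9.42 ± 0.104 in SD and 9.58 ± 0.090 in WD, 1.12-fold higher (log2 fold change 0.17 ± 0.13, limma adjusted p = 0.942), with a 95% interval of the ratio from 0.913 to 1.38.

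Per1, a repressor that also responds rapidly to hormones and stress, had 3 detected probes, and they ordered the mice differently. At the brightest probe its level was 9.90, 9.82 and 10.12 under SD and 9.83, 10.37 and 10.06 under WD. WD mouse 4 was highest there, and the diets overlapped. At the second probe the level was 8.58, 8.25 and 8.36 in SD and 8.01, 8.52 and 8.44 in WD, with SD mouse 1 highest and WD mouse 3 lowest. At the dimmest probe, which the platform ties to a cDNA clone record and not to the RefSeq transcript, it was 5.92, 6.21 and 5.63 in SD and 5.64, 5.34 and 5.79 in WD, so that WD mouse 4, highest at the first probe, was lowest here. Over the 6 mice the first probe correlated with the second at r = 0.55 and with the dimmest at r = -0.78, a description of probes on the same arrays. The log2 fold changes were 0.14 ± 0.17, -0.07 ± 0.18 and -0.32 ± 0.19 (limma adjusted p = 0.965, 0.978 and 0.935), so the probes of Per1 did not share a direction.

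Per2, a repressor of the loop like its paralog Per1, had 2 measured probes. Its level at the brighter of them was 7.33, 7.23 and 7.19 in SD and 7.39, 6.90 and 7.55 in WD. The SD mice lay close together within the range of the WD mice, with a standard deviation of 0.071 in SD and 0.336 in WD. At the other probe the level was 7.34, 7.04 and 7.48 in SD and 6.94, 7.13 and 7.63 in WD, where SD mouse 5 and WD mouse 6 were highest. The probes correlated at r = 0.37 over the 6 mice. Their log2 fold changes were 0.03 ± 0.18 and -0.05 ± 0.21 (limma adjusted p = 0.991 and 0.987). Cry2 had a level of 6.86, 6.23 and 6.58 in SD and 7.00, 6.63 and 6.51 in WD, with WD mouse 3 highest and SD mouse 2 lowest. Its mean of 6.71 ± 0.253 in WD against 6.56 ± 0.316 in SD gave a log2 fold change of 0.16 ± 0.20 (limma adjusted p = 0.965), which was -0.004 without SD mouse 2 and 0.02 without WD mouse 3.

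Dbp, the transcription factor that in organs such as the liver swings widely over the day, was 1.16-fold higher in WD by its means. Mice 1, 2 and 5 on SD had levels of 9.05, 9.09 and 8.75, and mice 3, 4 and 6 on WD had 9.32, 9.16 and 9.06. WD mice 3 and 4 lay above all SD mice and WD mouse 6 lay among them, with SD mouse 5 as the lowest. The log2 fold change of 0.22 ± 0.15 had a 95% interval of the ratio from 0.916 to 1.48 and a limma adjusted p of 0.935. It was 0.15 without WD mouse 3, the mouse with the high median levels of macrophage, Leydig and Sertoli markers, and 0.11 without SD mouse 5. The part of either mouse in the difference was not tested.

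**Figure D2:**
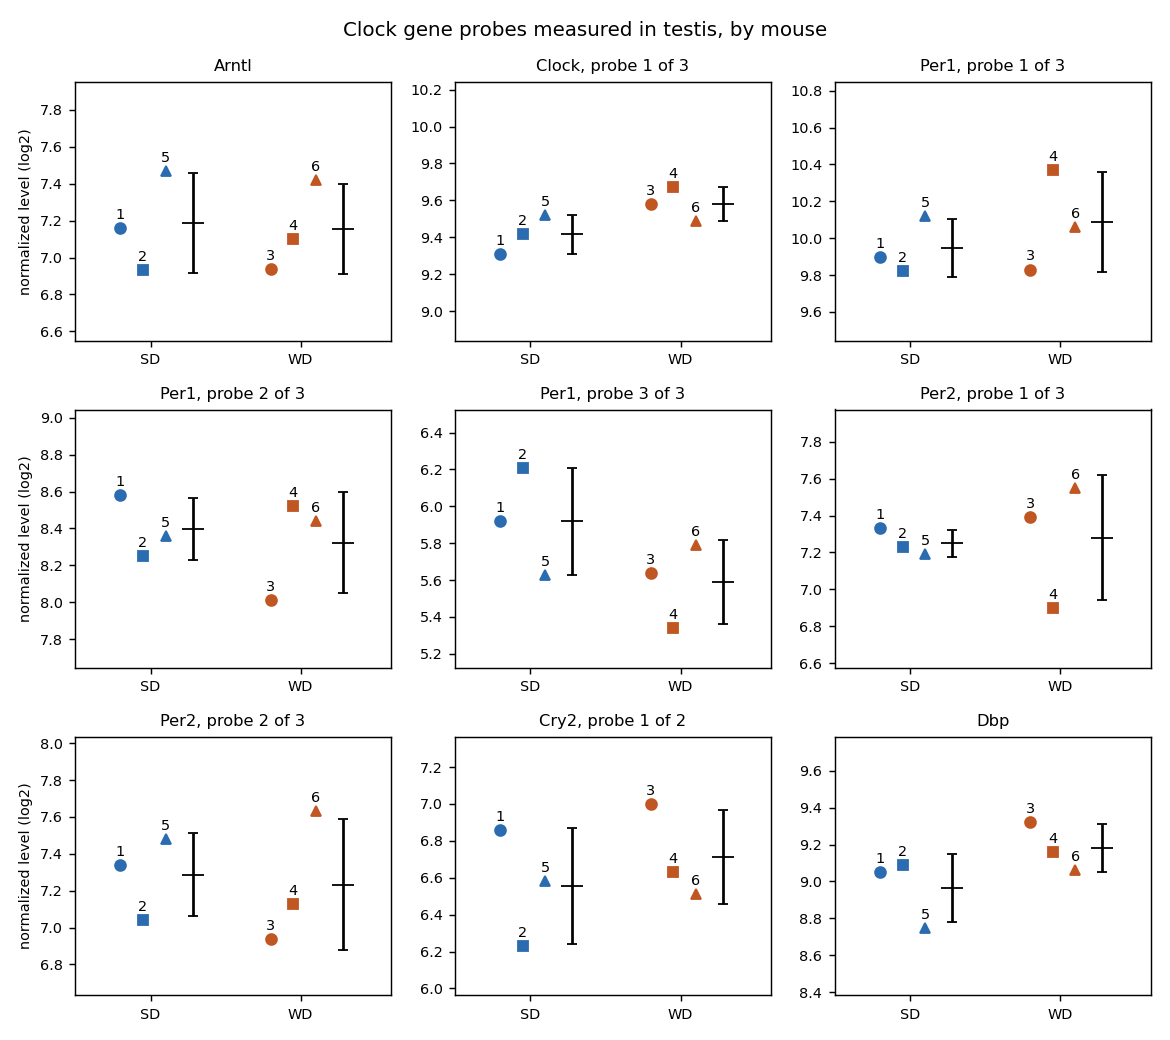
Normalized log2 level of the 9 clock gene probes that entered the comparison, in each mouse (numbered points, SD blue and WD orange), with the mean and standard deviation of 3 mice beside each diet in black. Every panel spans the same height on the log2 scale, and in each of them the values of the diets overlap.

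No clock gene differed between the diets at the adjusted threshold. By limma, 0 of the 9 probes had an adjusted p under 0.05, and the same was true of 0 of all 19763 tested probes (0%), with adjusted p-values of the clock probes from 0.935 to 0.991. At an unadjusted p under 0.05 there were 0 clock probes, where 5.13% of all tested probes were called. The diets overlapped at all 9, and 10.2% of all tested probes showed no overlap (5.17% higher and 4.98% lower in WD). With only 9 probes, counts of 0 cannot be told apart from these shares. By sign alone 5 probes were higher and 4 lower in WD, against 49.8% higher among all tested probes, and the median log2 fold change was 0.03 against -0.001. The median absolute change was 0.14 for the clock probes and 0.13 for all. The 95% intervals from limma were each taken for 1 probe, without adjustment for multiple tests. Over the 9 probes the lowest bound was a WD to SD ratio of 0.59 at the dimmest Per1 probe, and the highest was 1.54 at Cry2. The 4 genes without a tested probe have no interval.

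The rest of the pathway was described from a list of 32 other genes that regulate or follow the clock, of which 28 were on the array and 19 were measured at their brightest probe. Of the 19, 13 were higher and 6 lower in WD, against 49.8% higher among all tested probes. The median log2 fold change was 0.08, against -0.001 for all tested probes, and 0 passed the adjusted threshold by limma. Csnk1e, a casein kinase that phosphorylates PER proteins, was the only 1 of the 19 with an unadjusted limma p under 0.05. Among all tested probes 5.13% were called at that threshold. Under SD the level of Csnk1e was 6.28, 6.55 and 6.48, and under WD it was 6.78, 6.75 and 6.89. All WD mice lay above all SD mice, as did the WD mice at 5.17% of all tested probes. The log2 fold change was 0.37 ± 0.13, 1.29-fold, with an unadjusted p of 0.0234 and a limma adjusted p of 0.905. Without SD mouse 1 or WD mouse 6 the unadjusted limma p was 0.0845 or 0.0701. With no background correction the log2 fold change of Csnk1e was 0.17, with an unadjusted limma p of 0.0912. The summed endothelial, peritubular, macrophage and red blood cell signals were also higher in all WD mice, and their part in the Csnk1e difference was not tested. In the same family Csnk1d differed by 0.02 and Csnk1a1 by -0.17 ± 0.28.

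The next highest log2 fold changes were 0.31 for Wee1, a kinase of the cell cycle whose promoter is bound by the activator pair in mouse liver, and 0.29 for Bhlhe40, a repressor that competes for E-boxes. Wee1 was lowest in SD mouse 1, the only mouse without detection, at 5.29 against 6.17 to 6.64 in the others. Bhlhe40 was highest in WD mouse 3, at 8.13 against 7.16 to 7.57 in the others. The median levels of the macrophage, Leydig and Sertoli markers, though not every marker, were also highest in this mouse. The limma adjusted p-values of Wee1 and Bhlhe40 were 0.965 and 0.941. The lowest were -0.17 for Csnk1a1, -0.15 for Wdr5, a subunit of histone methyltransferases, and -0.14 for Nr1d2, the paralog of Nr1d1 (limma adjusted p = 0.972, 0.965 and 0.965). Unlike Nr1d1, Nr1d2 was detected on all 6 arrays, at 8.94, 8.51 and 8.40 in SD and 8.50, 8.37 and 8.57 in WD. Rora, an activator that competes with NR1D1 and NR1D2 for ROR elements, was likewise detected in every mouse, with 10.05, 10.26 and 10.16 in SD and 10.07, 10.10 and 9.96 in WD. Of the 9 genes that were not measured, 6 were detected on 0 arrays. These were Arntl2, Bhlhe41 and Hlf, relatives of Arntl, Bhlhe40 and Dbp, and also Fbxl21, Fbxw11 and Prkaa2.

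**Figure D3:**
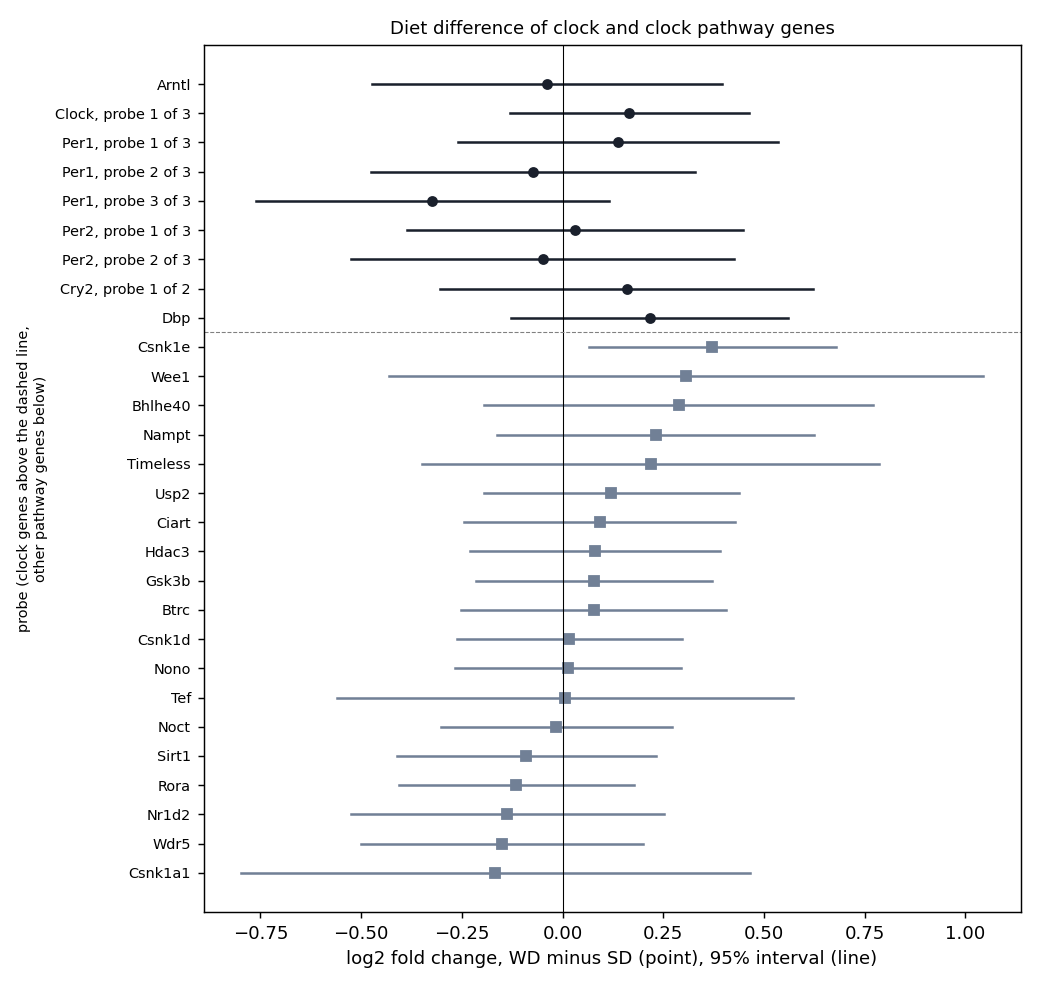
Difference between the diets for the 9 clock gene probes (circles, above the dashed line) and the 19 measured genes of the wider pathway (squares, below it), as the log2 fold change of WD minus SD with its 95% interval from limma before adjustment for multiple tests. All intervals of the clock genes include 0, and Csnk1e is the only gene of the wider pathway whose interval does not.

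To see whether activators and the genes they drive varied together from mouse to mouse, the brightest probes of Arntl and Clock were correlated with those of Per1, Per2, Cry2 and Dbp over the 6 mice, 8 pairs in all. In 5 pairs r was positive and in 3 negative, and 0 pairs passed an adjusted p under 0.05. The furthest from 0 was that of Arntl and Dbp, whose transcripts are opposite in phase in rhythmic organs. Its Pearson r was -0.78 (exact two-sided permutation p = 0.0444, adjusted p = 0.356) and its Spearman rho -0.77 (exact two-sided permutation p = 0.103, adjusted p = 0.594). SD mouse 5 had the highest Arntl and the lowest Dbp, and WD mouse 3 had the highest Dbp with an Arntl level close to the lowest. Without mice 5 and 6, which were farthest from the median of Arntl and had the dimmest arrays, r was -0.55 over 4 mice, and a separate value within mice 5 and 6 could not be had. With each diet centred on its own mean r was -0.94, and under the other normalizations it lay between -0.90 and -0.78. Among the 11264 genes with a measured probe, 651 had a lower r with Arntl than Dbp had, and 480 had a lower r with Dbp than Arntl had.

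The other pairs gave no common sign at the brightest probes. The 2 measured Per2 probes both had a mean level of 7.26 and correlated at r = 0.37. At the second of them mice 5 and 6 were highest, as they were for Arntl. The pairs were not computed at this probe or at the other Per1 probes, so the values below depend on the probe chosen. Arntl had an r of 0.45 with Per1, 0.20 with Per2 and -0.12 with Cry2 (exact permutation adjusted p = 0.733, 0.847 and 0.847), and a Spearman rho of 0.66, 0.03 and -0.03 (exact permutation adjusted p = 0.594, 1 and 1). Clock had an r of 0.64 with Per1, -0.47 with Per2, 0.12 with Cry2 and 0.27 with Dbp (exact permutation adjusted p = 0.667, 0.733, 0.847 and 0.847), and a rho of 0.54, -0.37, 0.31 and 0.54 (exact permutation adjusted p = 0.594, 0.752, 0.752 and 0.594). At the brightest probes WD mouse 4 had the highest Clock and Per1 and the lowest Per2. This order did not hold at the other measured probes of Per1 and Per2. Without the 2 mice farthest from the median of the activator, r changed sign in 3 of the 8 pairs, Arntl with Per2 and Cry2 and Clock with Per2, and r of Clock moved from 0.64 to 0.11 with Per1 and from 0.12 to 0.98 with Cry2. With each diet centred on its own mean, r of Clock turned to -0.17 with Cry2 and to -0.35 with Dbp, and the other pairs kept their sign. Arntl and Clock themselves, which act as partners, had an r of -0.04.

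**Figure D4:**
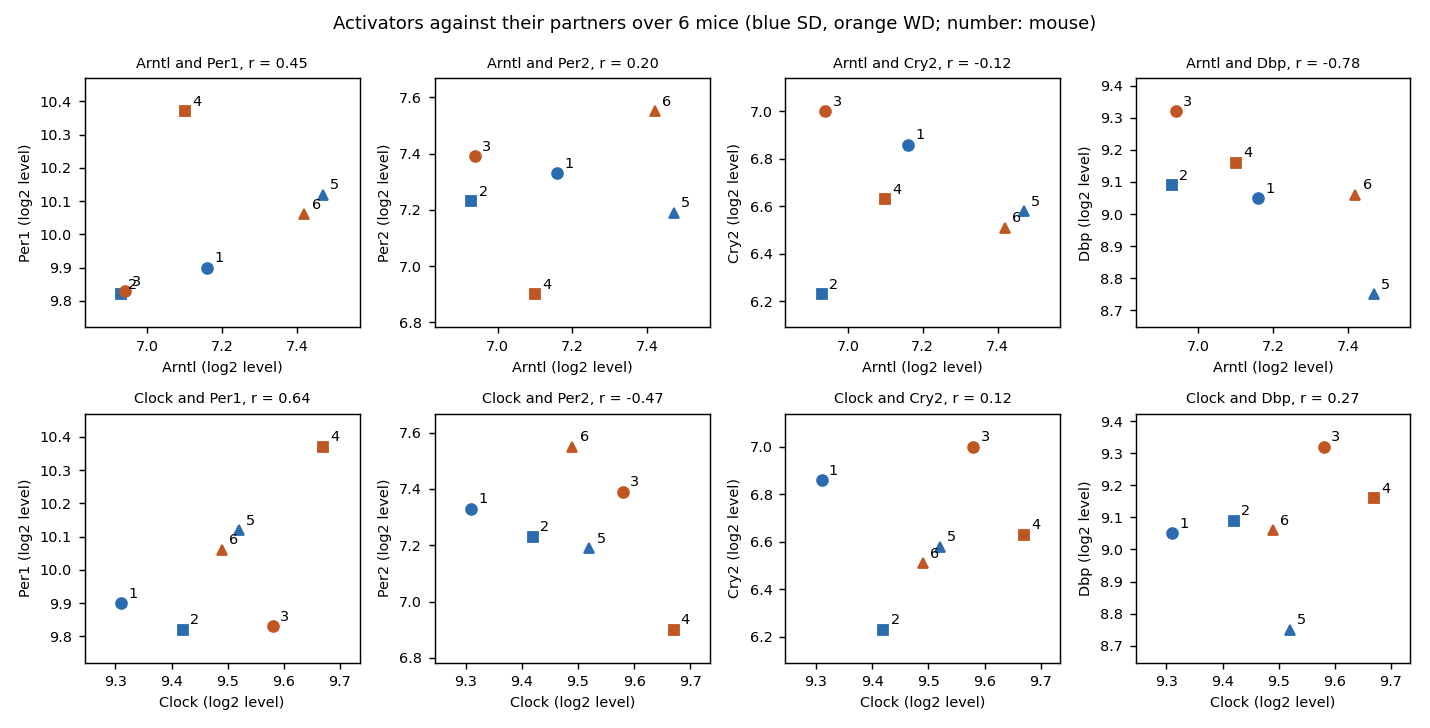
Normalized log2 level of Arntl (upper row) and Clock (lower row) against that of Per1, Per2, Cry2 and Dbp at the brightest probe of each, with 1 numbered point per mouse, SD in blue and WD in orange. In the panel of Arntl and Dbp (r = -0.78) mice 5 and 6 lie to the right, and the remaining panels have r between -0.47 and 0.64.

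For comparison, the genes whose levels were most like those of Arntl over the 6 mice were the splicing factor Srsf6 (r = 0.997), Mrpl18, a protein of the mitochondrial ribosome (r = 0.996), and 1110002L01Rik (r = 0.991), and those most like Dbp were Vmp1, a membrane protein of autophagy (r = 0.990), Gusb, a lysosomal enzyme (r = 0.985), and Fndc10 (r = 0.984). With 6 mice and 11264 genes compared, values of this size describe these arrays only. With each gene taken at its brightest probe, the clock gene closest to Arntl was Per1, at rank 2723, and the one closest to Dbp was Cry2, at rank 2909.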

How the data were processed

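Testis RNA of 6 mice was hybridised to 1 array each. Intensities of MouseWG-6 v2.0 BeadChips were deposited by the authors as exported from GenomeStudio (version not given in the sources used here), 1 linear value per probe and array, neither background subtracted nor scaled. Per the file headers a detection p-value accompanies each intensity, but it rises with intensity, so each is a score that stands for 1 minus p. The authors' deposited log2 values are log2 intensities from which each array's upper quartile and a value per probe, common to all arrays, were subtracted (remaining standard deviation at most 0.000152), and the origin of that common value is unknown. Mice 1, 2 and 5 (SD) had medians of -0.0173, -0.0564 and 0.00185, and mice 3, 4 and 6 (WD) of -0.012, 0 and 0.0076. They served as an alternative.

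Here, intensities were background corrected and quantile normalized with neqc of limma 3.58.1 (R 4.3.3, offset 16). Probes with a detection p under 0.05 on at least 3 of 6 arrays were tested, WD minus SD, with lmFit and eBayes and Benjamini-Hochberg adjustment over 19763 probes, threshold 0.05. The study's methods name limma and this threshold. The procedure was tested on simulated data. The limma p-values set the diet difference against the spread between mice of the same diet, which limma moderates over all tested probes. The standard errors of the fold changes rest on this moderated spread, and the number of arrays limits the precision. Probes were named from the platform annotation, and all 18 clock probes matched a RefSeq gene by Entrez number. The probe with the highest mean level stood for a gene. Correlations used exact permutation over 6 mice (scipy 1.17.1), adjusted over 8 pairs. Members, lists, motifs and tests were chosen with earlier results of these data known. All 10 members were named. Of the wider pathway the genes with an unadjusted p under 0.05 and the 3 highest and 3 lowest fold changes were named. Csnk1d, Rora, Arntl2, Bhlhe41, Hlf, Fbxl21, Fbxw11 and Prkaa2 were named after their values were seen. Alternatives were other background, offset, scaling, filter and variance settings, mice 5 and 6 as a block or left out, and each mouse left out.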

Additional observations from a re-analysis of the deposited data

How the results depend on the processing

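Across the 16 alternatives to the comparison of diets, 0 clock probes, 0 genes of the wider pathway and 0 of all tested probes passed the adjusted threshold, and the smallest adjusted p over all probes lay between 0.542 and 1. An unadjusted p under 0.05 was met by 1013 probes in all, and by 766 to 2213 under the alternatives (2213 with no filter, 1572 without WD mouse 6, 1567 without mice 5 and 6). Of 143 fold changes of clock probes under the alternatives, 131 kept their direction. The 12 that turned were Arntl (0.104 without SD mouse 5, 0.069 without WD mouse 3), the second Per1 probe (0.016 without SD mouse 1, 0.085 without WD mouse 3), the first Per1 probe (-0.004 without WD mouse 4), Cry2 (-0.004 without SD mouse 2), the first Per2 probe (-0.026 without WD mouse 3, -0.102 without WD mouse 6, -0.132 without mice 5 and 6) and the second Per2 probe (0.097 without WD mouse 3, 0.004 without WD mouse 4, 0.046 without SD mouse 5). None was called, and the cause was not tested. With each mouse left out in turn the log2 fold change ranged from -0.173 to 0.104 for Arntl, from -0.004 to 0.266 and from -0.171 to 0.085 for the first and second Per1 probe, from -0.102 to 0.22 and from -0.248 to 0.097 for the first and second Per2 probe, and from -0.004 to 0.311 for Cry2. It ranged from 0.114 to 0.218 for Clock, from 0.11 to 0.281 for Dbp and from -0.47 to -0.178 for the dimmest Per1 probe. Over all alternatives Clock lay between 0.097 and 0.263, Dbp between 0.11 and 0.281 and the dimmest Per1 probe between -0.57 and -0.09, the last with an unadjusted p of 0.0282 without mice 5 and 6 and 0.0435 without SD mouse 5 (limma adjusted p = 0.606 and 0.681). With no filter the second Clock probe had an unadjusted p of 0.0438 (limma adjusted p = 0.967). Csnk1e no longer had an unadjusted p under 0.05 with no background correction, the deposited log2 values or the variance trend, nor without SD mouse 1, WD mouse 6 or mice 5 and 6 (log2 fold change 0.17 to 0.372 over these). With 4 other normalizations 0 of the 8 pairs passed, and r of Clock and Cry2 turned to -0.13 with the deposited log2 values. No paired analysis was possible because the mouse numbers in the titles differ between the diets.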
